A study of Rattus norvegicus with 30 samples.

Results

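Interferon-stimulated genes were followed in the livers of 30 female Sprague-Dawley rats aged 10 wk. The genes were Oas1a, Usp18, Mx1, Mx2, Ifi27, Irf7, Isg15, Ifit3 and Rsad2, and the members were all probe sets annotated to just the symbol of 1 of them. There were 10 such probe sets for 9 genes, of 31042 probe sets for 14217 genes in the whole series. RNA of the left liver lobe was hybridized to Affymetrix rat arrays, 1 array per animal. Of the 3 groups of 10 rats, the first was weighed, restrained and given water by oral gavage daily for 4 days, the second underwent the same procedures for 1 day, and both had blood drawn repeatedly from the tail vein under restraint on the last of these days. The control group was left unhandled and was euthanized on the same day as the 1-day group. The 4-day group was euthanized later, so for that group handling and the day of euthanasia cannot be told apart.

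Interferons are cytokines, of which cells release type I interferons on sensing viral nucleic acid. Type I interferons act through a receptor shared by nearly all cells and the kinases Jak1 and Tyk2. They also act through a transcription factor complex that holds Stat2 and Irf9. That complex binds the interferon-stimulated response element (ISRE) in the promoters of its target genes. Interferon-gamma acts through another element, the gamma-activated sequence (GAS). The products act against viruses in different ways. Oas1a makes the messenger that activates RNase L upon double-stranded RNA, the Mx GTPases trap viral particles, Rsad2 (viperin) makes a nucleotide that stops viral RNA chains, and Ifit3 acts with other Ifit proteins that bind viral RNA. Isg15 is a ubiquitin-like protein that is attached to other proteins, Usp18 removes it and also damps the type I receptor, Irf7 drives the transcription of interferon-alpha genes, and Ifi27 is a small membrane protein. Many of these genes have a low level of transcription in healthy liver, in which hepatocytes, Kupffer cells and endothelium all respond to interferon.

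The promoters are shown because the ISRE is the element through which these genes are known to be induced together. RefSeq promoters of GRCr8, which run from 250 bases before to 50 bases after a gene's start, were given for 6 of the 9 genes, and Usp18, Mx2 and Isg15 had no entry. The ISRE core was searched as GAAANNGAAA on either strand, whose reverse is TTTCNNTTTC, and overlapping matches were counted separately. It was present in 5 of the 6 promoters and in 1312 of 33469 promoters in all (3.92%). The stretches around the matches are given 5′ to 3′ on the strand of the gene, with the ISRE core in capitals.
Oas1a, chr12:41330418-41330447, plus strand: ctctcggGAAATGGAAACTGAAAatcttgt
Ifi27, chr6:128355113-128355267, plus strand: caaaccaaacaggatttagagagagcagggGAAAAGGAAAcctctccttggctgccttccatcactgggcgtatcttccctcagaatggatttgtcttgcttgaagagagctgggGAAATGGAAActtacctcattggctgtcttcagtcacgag
Irf7, chr1:205800073-205800102, minus strand: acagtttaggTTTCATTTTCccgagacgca
Ifit3, chr1:241527252-241527321, plus strand: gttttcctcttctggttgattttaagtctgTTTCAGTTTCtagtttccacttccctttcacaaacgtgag
Rsad2, chr6:48788248-48788277, minus strand: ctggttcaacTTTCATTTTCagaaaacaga

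In Oas1a, 2 overlapping cores began 41 and 35 bases before the start. Ifi27 also held 2 cores, which were separate and began 169 and 84 bases before its start. The core read on the opposite strand in Irf7, Ifit3 and Rsad2, where it began 69, 44 and 147 bases before the start. The 300 bases of Mx1 did not hold these letters. The GAS core, TTCNNNGAA, which reads the same on both strands, was found in the promoter of Oas1a only among the 6, and in 2970 of all promoters (8.87%). These matches describe letters in a window and not sites in use. For Oas1a, Irf7, Rsad2 and Mx1 the start used for the promoter lies inside the gene's annotated span. The stretches of Oas1a, Irf7 and Rsad2 are therefore shown over 30 bases only, and the window searched in Mx1 is that of an internal start. In the same build Irf7 and Ifit3 lie on chromosome 1, Usp18 on chromosome 4, Isg15 on chromosome 5, Rsad2 and Ifi27 on chromosome 6 and Oas1a on chromosome 12, and Mx1 (chr11:50269056-50294699) and Mx2 (chr11:50375101-50399373) are close to each other on chromosome 11.

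The deposited intensities had a mean of 1 on every array, and array medians were 0.118 to 0.125 after 4 days of handling, 0.118 to 0.124 after 1 day and 0.118 to 0.124 in control rats. Pearson's r between arrays over all probe sets was 0.946 to 0.976. Control rats 1, 2 and 3 stood apart in genes of lipid synthesis. Fasn, which encodes fatty acid synthase, had an intensity of 17.3, 28.7 and 10.4 in them, against 0.322 to 1.30 in the other 27 rats. The Gapdh control transcript is probed at its 3′ and its 5′ end, and the log2 ratio of these signals, which reflects the integrity and labelling of the RNA, was 0.70 to 0.96 after 4 days (median 0.74), 0.66 to 0.83 after 1 day (median 0.75) and 0.55 to 0.70 in control rats (median 0.66), and its part in the results below was not tested except as a covariate. Hepatocyte markers had a summed intensity of 380 to 436 after 4 days, 380 to 424 after 1 day and 373 to 427 in control rats, with all 8 markers measured.

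After 4 days of handling most of these genes had lower values than in control rats, and Oas1a alone passed the test. Oas1a fell to 0.423 of the control level, and was the only member probe set called of 10 at an adjusted p under 0.1 (limma, Benjamini-Hochberg over 31042 probe sets), where 0.657% of all probe sets were called. Usp18, Mx2 and Isg15 lay 0.91 to 1.13 lower on the log2 scale and did not pass. After 1 day, 0 of 10 member probe sets were called, where 0.0902% of all probe sets were, and between 4 days and 1 day 0 of 10 were called, where 0% of all were.

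Oas1a had an intensity of 0.142 to 0.792 after 4 days (median 0.241), 0.239 to 0.877 after 1 day (median 0.424) and 0.275 to 1.13 in control rats (median 0.585). The groups overlapped, and 6 of 10 rats handled for 4 days lay below the lowest control rat while 9 lay below the control median. The rat handled for 4 days that did not, rat 8, had the highest value of its group, and the next highest was 0.394. The log2 fold change was -1.24 ± 0.28 after 4 days against control (standard error, adjusted p = 0.0545 by limma), and the difference between the medians was -1.28. After 1 day it was -0.53 ± 0.28 (adjusted p = 0.586), and 4 days against 1 day gave -0.71 ± 0.28 (adjusted p = 0.985). The 2 contrasts against control share the control rats. The call at 4 days was lost without any 1 of control rat 3 (adjusted p = 0.11), rat 5 handled for 4 days (0.102) or rat 6 handled for 4 days (0.102). At the same fold change it was also lost in a fit of both groups alone (adjusted p = 0.16) and in the exact rank-sum test (adjusted p = 0.146). A limma fit with the rat's number within its group as a block lost it as well (adjusted p = 0.114). With the Gapdh ratio as a covariate the log2 fold change was -1.50 with an adjusted p of 0.277. The Oas1 genes are a family of close copies, and cross-hybridization between them was not tested.

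**Figure D1:**
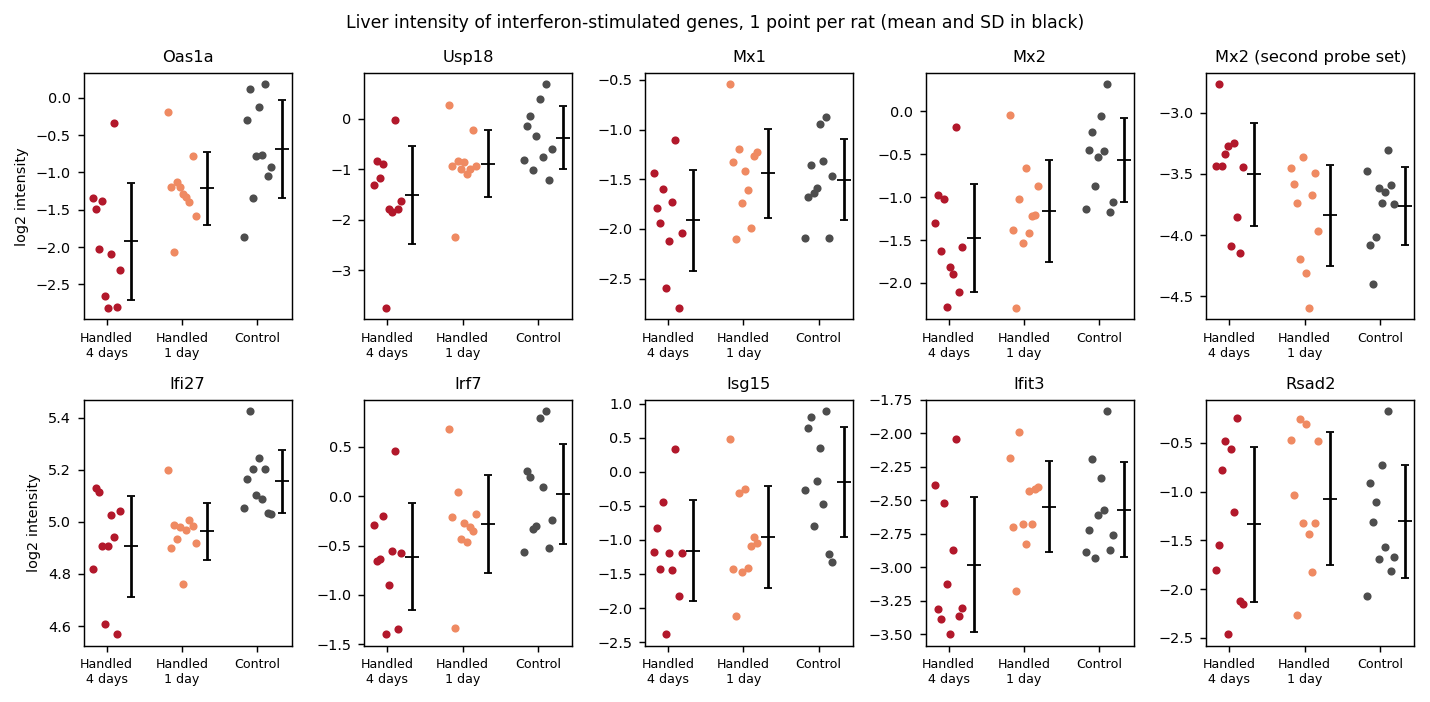
Log2 intensity (vertical axis) of the 10 probe sets in the 10 rats of each group, handled for 4 days on the left, handled for 1 day in the middle and control on the right, with 1 point per rat and the group mean and SD in black. Oas1a, Usp18, Mx2 and Isg15 lie lower as a group after 4 days, and rat 8 of that group lies above the other 9 rats in these 4 genes.

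The Isg15 system came next in size. Usp18 had an intensity of 0.0741 to 0.978 after 4 days (median 0.362), 0.197 to 1.21 after 1 day (median 0.523) and 0.431 to 1.60 in control rats (median 0.724). Of the rats handled for 4 days 6 lay below all control rats, against 1 of the rats handled for 1 day. Its log2 fold change was -1.13 ± 0.33 after 4 days (adjusted p = 0.144, limma) and -0.52 ± 0.33 after 1 day (adjusted p = 0.659). Isg15 had 0.191 to 1.26 after 4 days (median 0.438), 0.232 to 1.39 after 1 day (median 0.477) and 0.401 to 1.87 in control rats (median 0.873). In this gene 4 rats of each handled group lay below all control rats. Isg15 differed from control by -1.01 ± 0.33 after 4 days (adjusted p = 0.207, limma) and by -0.81 ± 0.33 after 1 day (adjusted p = 0.447), and without control rats 1, 2 and 3 these values were -0.78 and -0.57 (adjusted p = 0.41 and 0.707).

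Both Mx genes were measured. Mx2, whose product is cytoplasmic in rodents, had an intensity of 0.206 to 0.883 after 4 days (median 0.329), 0.204 to 0.974 after 1 day (median 0.43) and 0.443 to 1.24 in control rats (median 0.709). Below the lowest control rat lay 7 rats of the 4-day group and 6 of the 1-day group. The log2 fold change of Mx2 was -0.91 ± 0.25 after 4 days (adjusted p = 0.114, limma) and -0.60 ± 0.25 after 1 day (adjusted p = 0.453). Mx1, whose product is nuclear in rodents, had 0.144 to 0.465 after 4 days (median 0.275), 0.233 to 0.685 after 1 day (median 0.386) and 0.234 to 0.544 in control rats (median 0.348). Its values after 1 day spanned those of the control rats, at 0.06 ± 0.20 on the log2 scale, and after 4 days it lay at -0.41 ± 0.20 (adjusted p = 0.435). Whether Mx1 and Mx2 differed from each other in their response was not tested.

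The second probe set of Mx2 did not follow the first. Its mean intensity was 0.0797, below the median of all values of 0.122, and over the 30 rats, after centring on the group means, Pearson's r between both was 0.03 and Spearman's rho was -0.03. The second probe set had 0.0564 to 0.146 after 4 days, 0.0414 to 0.097 after 1 day and 0.0475 to 0.101 in control rats, with a log2 fold change of 0.26 ± 0.17 after 4 days (adjusted p = 0.592, limma). In what follows Mx2 is the first probe set, which had the higher mean.

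Irf7, the transcription factor among the members, had 0.379 to 1.37 after 4 days (median 0.657), 0.395 to 1.60 after 1 day (median 0.816) and 0.677 to 1.82 in control rats (median 0.955). Of the rats handled for 4 days 6 lay below all control rats, and of those handled for 1 day 1 did. The log2 fold change of Irf7 was -0.64 ± 0.22 after 4 days (adjusted p = 0.241, limma) and -0.31 ± 0.22 after 1 day (adjusted p = 0.704).

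Ifi27 stood out by its high intensity and its small spread. It had an intensity of 23.7 to 35.0 after 4 days (median 30.4), 27.1 to 36.7 after 1 day (median 31.5) and 32.7 to 43.0 in control rats (median 35.1). Although the difference was small, 7 rats of the 4-day group and 9 of the 1-day group lay below the lowest control rat. The log2 fold change was -0.25 ± 0.07 after 4 days (adjusted p = 0.141, limma) and -0.19 ± 0.07 after 1 day (adjusted p = 0.405). Its SD within groups was 0.146 on the log2 scale, against a median of 0.371 over all probe sets. Its mean intensity of 32.4 lay at percentile 99.7 of all probe sets, and its spread was not compared with that of equally bright probe sets.

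Ifit3 and Rsad2 did not lie below control after 1 day. Ifit3 had 0.0883 to 0.243 after 4 days (median 0.108), 0.111 to 0.252 after 1 day (median 0.171) and 0.131 to 0.281 in control rats (median 0.158). After 4 days 6 rats lay below all control rats, and the log2 fold change was -0.41 ± 0.18 (adjusted p = 0.359, limma), against 0.02 ± 0.18 after 1 day (adjusted p = 0.979). Rsad2 had 0.181 to 0.845 after 4 days (median 0.388), 0.208 to 0.835 after 1 day (median 0.445) and 0.239 to 0.889 in control rats (median 0.369). The groups of Rsad2 overlapped almost wholly, at -0.03 ± 0.30 after 4 days (adjusted p = 0.981) and 0.23 ± 0.30 after 1 day (adjusted p = 0.849), and its SD within groups of 0.692 was among the highest of the members.

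Counted over the members, 9 of 10 probe sets were below 0 after 4 days, though Rsad2 only just and with the sign reversed when 1 was added to the intensities before the logarithm, and the median log2 fold change was -0.52, against 0.00 over all probe sets. At an unadjusted p under 0.05, 8 of 10 were lower after 4 days, where 5.89% of all probe sets were. After 1 day 7 of 10 were below 0 with a median of -0.25, and 3 of 10 (Mx2, Ifi27 and Isg15) were lower at an unadjusted p under 0.05, where 4.86% of all probe sets were. For 4 days against 1 day the median was -0.32, with 9 of 10 below 0, and 3 of 10 (Oas1a, Mx1 and Ifit3) were lower at an unadjusted p under 0.05, where 2.57% of all probe sets were. An exact rank-sum test adjusted over all probe sets called 0 member probe sets in each of the 3 contrasts. Since the members vary together across rats, these counts do not add up as independent genes would. Without control rats 1, 2 and 3, Oas1a was again the member called after 4 days, at -1.24 (adjusted p = 0.0661).

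**Figure D2:**
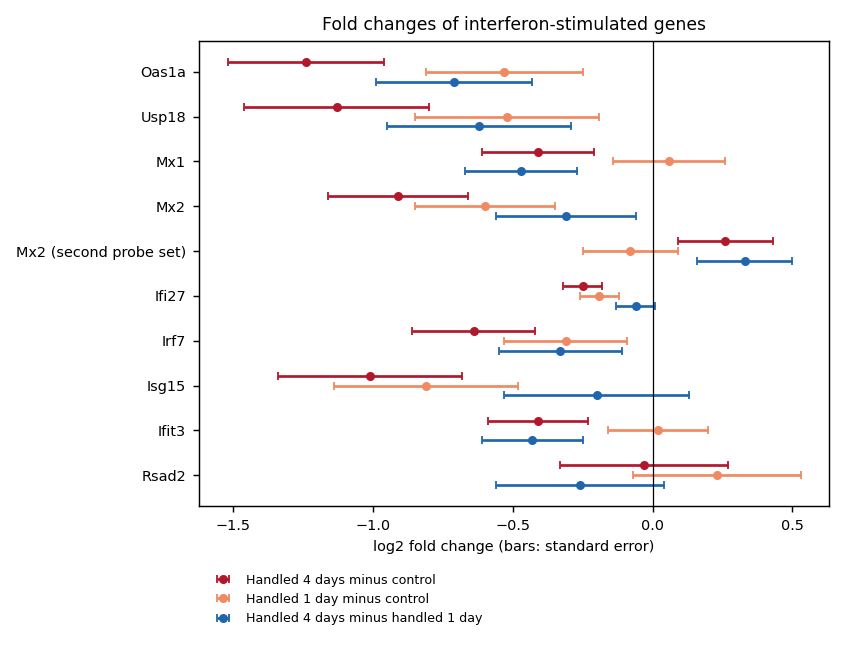
Log2 fold change (horizontal axis) of the 10 probe sets, with bars of 1 standard error, for 4 days of handling against control in red, 1 day against control in orange and 4 days against 1 day in blue. The largest is that of Oas1a after 4 days at -1.24, and the second Mx2 probe set lies on the other side of 0 at 0.26.

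Most members varied more between rats of the same group than the median probe set did, and they varied together. The SD within groups on the log2 scale was 0.769 for Usp18, 0.768 for Isg15, 0.692 for Rsad2, 0.658 for Oas1a, 0.574 for Mx2, 0.516 for Irf7, 0.457 for Mx1 and 0.405 for Ifit3, all above the median of 0.371 over all probe sets. Among all probe sets these SDs ran from percentile 55.0 for Ifit3 to 98.0 for Usp18 and Isg15. Ifi27 lay below the median, with an SD of 0.146 at percentile 9.9. Group membership accounted for 39.9% of the variance of Oas1a, 37.0% of that of Ifi27, 32.5% of that of Mx2, 28.7% of that of Usp18 and 26.4% of that of Isg15. It accounted for 21.9% in Irf7, 21.2% in Ifit3, 18.9% in Mx1 and 3.1% in Rsad2, where the median over all probe sets was 6.5% and the 90th percentile 20.4%. The larger share of the variance of every member thus lay between rats of the same group. In the F test that limma gives over all groups at once, the smallest adjusted p among the 9 genes was 0.137, for Oas1a. How many of all probe sets passed this F test was not counted.

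A few arrays were high in most or all of the members. Rat 8 of the 4-day group was among the 5 highest of 30 rats in 6 of 9 genes, with a mean rank of 6.11 from the highest. Rat 1 of the 1-day group was among the 5 highest in 9 of 9 genes, with a mean rank of 3.44. Control rat 8 was among the 5 highest in 9 of 9 genes at a mean rank of 1.33, control rat 6 in 7 genes at 3.89 and control rat 3 in 6 genes at 5.56. By a robust z over 2, which is the distance from the median of 30 rats in units of the scaled median absolute deviation, 0 genes were high in rat 8 handled for 4 days and in the other 9 rats of that group, 3 in rat 1 handled for 1 day, and 5, 2, 2 and 1 in control rats 8, 6, 3 and 2. In the order of mean rank, 3 of the 5 rats with the highest mean rank were control rats. For Irf7 these rats had an intensity of 1.37 for rat 8 handled for 4 days, 1.60 for rat 1 handled for 1 day, and 1.82, 1.73 and 1.15 for control rats 8, 6 and 3.

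At the other end, rat 5 of the 4-day group was among the 5 lowest in 8 of 9 genes and rat 9 of that group in 9 of 9, with mean ranks of 28.78 and 28.33. Rat 6 handled for 4 days and rat 3 handled for 1 day were among the 5 lowest in 6 genes each, at mean ranks of 24.44 and 26.56. Usp18 had an intensity of 0.0741 in rat 5 handled for 4 days and of 0.197 in rat 3 handled for 1 day. Control rats 1, 2 and 3, which shared the high Fasn, did not share a level of the members, with places 20, 6 and 4 of 30 by mean rank.

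**Figure D3:**
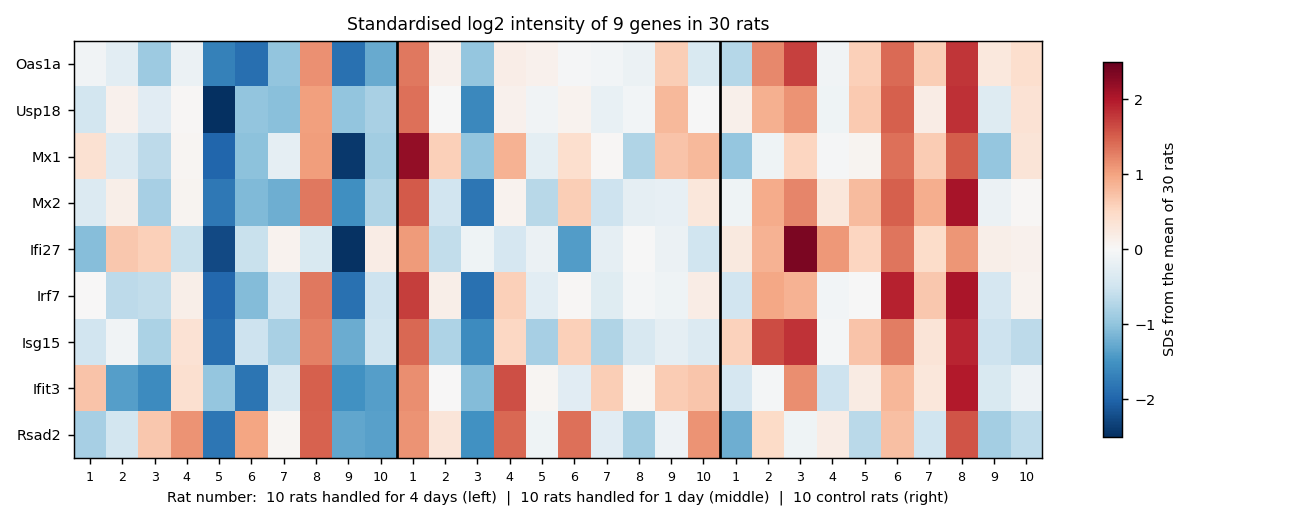
Log2 intensity of the 9 genes (rows) in 30 rats (columns, numbered within each group), in SDs from the gene's mean over 30 rats, with red high and blue low. The rats handled for 4 days are on the left, those handled for 1 day in the middle and control rats on the right. Rat 8 handled for 4 days, rat 1 handled for 1 day and control rat 8 form red columns, and rats 5 and 9 handled for 4 days form blue ones.

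The differences between the group medians after 4 days against control were -1.28 for Oas1a, -1.11 for Mx2, -1.0 for Usp18 and -0.99 for Isg15. They were -0.55 for Ifit3, -0.53 for Irf7, -0.34 for Mx1 and -0.21 for Ifi27. Control rats 8, 6, 3 and 2 were each high in 1 or more genes by the robust z, and so many of 10 rats can move a median. Leaving out those control rats together was not tested. For Rsad2 the difference between the medians was 0.07, opposite in sign to that between the means of -0.03. When each of the 30 rats was left out in turn, the log2 fold change of Oas1a after 4 days stayed between -1.42 and -1.14, with an adjusted p of 0.0327 to 0.11. The lowest of these came without rat 8 of the 4-day group, at -1.42. For Usp18 the range was -1.29 to -0.88, for Mx2 -1.05 to -0.81 and for Isg15 -1.18 to -0.87. Leaving out rat 8 handled for 4 days also brought Mx2 under the threshold, at -1.05 (adjusted p = 0.064), and so did leaving out control rat 9 or 10 or rat 1 or 3 handled for 1 day (adjusted p of 0.0923 to 0.0966). For Rsad2 the range was -0.15 to 0.10, so its sign depended on single rats.

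The co-variation was measured over the 30 rats after subtraction of the group means, so that a shift between groups does not enter. Over the 36 pairs of the 9 genes, Pearson's r ranged from 0.191 to 0.916 with a median of 0.74, and Spearman's rho had a median of 0.703. Among all pairs of the 31042 probe sets the median r was 0.00, and 0.038% of pairs had an r above the members' median. In permutations within groups, 34 of 36 pairs passed for r and 33 of 36 for rho at an adjusted p under 0.05 over the 36 pairs. The strongest pair was Mx2 with Irf7, at r = 0.916 and rho = 0.855 (adjusted permutation p = 1.89e-05 for r and 3e-05 for rho, from the smallest p that 100000 permutations can give, 1e-05). Mx1 with Irf7 had r = 0.912 and Mx2 with Isg15 had r = 0.907. The 2 rats farthest from the median of the first gene of a pair were then left out, upon which the median r was 0.688 and the range 0.099 to 0.892.

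**Figure D4:**
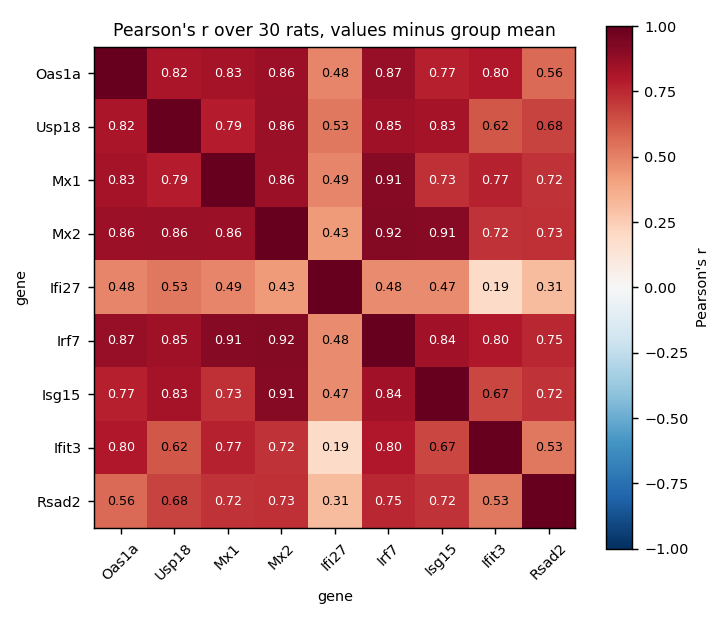
Pearson's r over 30 rats for each pair of the 9 genes (both axes), after subtraction of the group mean, with the value printed in each cell. All genes but Ifi27 and Rsad2 had r of 0.619 or more with each other, and the row of Ifi27 is the palest.

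Within single groups of 10 rats the median r was 0.741 after 4 days (-0.042 to 0.959), 0.765 after 1 day (-0.216 to 0.947) and 0.803 in control rats (0.514 to 0.937). The co-variation was thus present among unhandled rats as well. The 21 pairs of the 7 genes without Ifi27 and Rsad2 had r of 0.619 to 0.916. That subset was not part of the plan, and it leaves out every pair with r under 0.619. Ifi27 had the lowest median r with the other members, 0.473, against 0.699 for Rsad2 and 0.695 for Ifit3, and its pairs with Ifit3 (r = 0.191, rho = 0.139, adjusted permutation p = 0.383 and 0.492) and Rsad2 (r = 0.313, rho = 0.30, adjusted permutation p = 0.132 and 0.133) did not pass. Ifi27 with Mx1 passed for r (0.488, adjusted permutation p = 0.0126) and not for rho (0.36, adjusted permutation p = 0.0688).

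**Figure D5:**
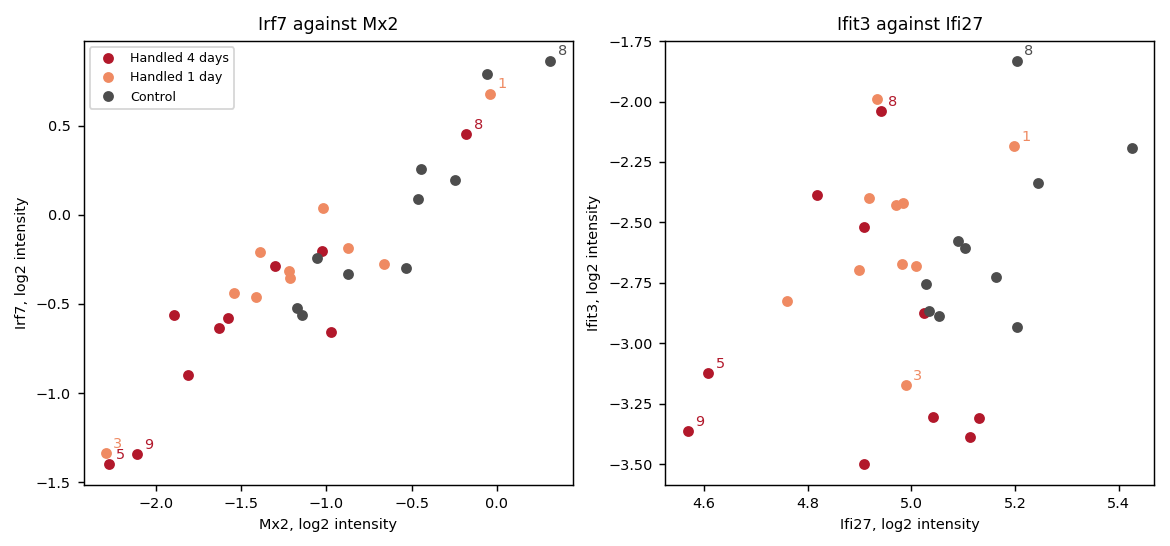
Log2 intensity of Irf7 against Mx2 (left) and of Ifit3 against Ifi27 (right) in 30 rats, with 1 point per rat, coloured by group as in the legend. Rats 5, 8 and 9 handled for 4 days, rats 1 and 3 handled for 1 day and control rat 8 are numbered in their group's colour. The left pair follows a single band through all groups (r = 0.916 after subtraction of the group means), and the right pair does not (r = 0.191).

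Of the genes that are not members, 104 of 14208 (0.732%) had r over 0.5 with the mean of the members' standardised values, over 30 rats and after subtraction of the group means. Among the interferon genes of the pathway lists, the closest was Rnf213. This large ubiquitin ligase had r = 0.883, Ifi44 0.862, Slfn4 0.855 and Slfn5 0.84. Irf9, the DNA-binding subunit of the type I interferon factor, had r = 0.813, and Oasl, a relative of Oas1a, had 0.789. The 10 closest genes in no pathway list were RT1-S3, a class I histocompatibility gene (r = 0.843), Znfx1, an RNA helicase-like protein (0.826), Ms4a6a (0.812), Ly6c (0.727), Skap2 (0.699), Ly6e (0.686), Apol9a (0.682), Msn, which encodes moesin (0.671), LOC100910973 (0.671) and Ms4a6bl1 (0.669). Of these 10, Ly6c, a surface marker of monocytes and other leukocytes in mice, was called, with a log2 fold change of -1.16 ± 0.29 after 4 days (adjusted p = 0.0902, limma). The other 9 ranged from -0.49 to -0.02 after 4 days without being called.

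The rest of the pathway gave few calls. Over all probe sets, 49.5% lay below 0 after 4 days, 5.89% were lower at an unadjusted p under 0.05 and 0.657% were called. Among receptors and signalling genes, 17 of 18 had a probe set, 0 were called in each contrast, and the median log2 fold change after 4 days was 0.01. In that list 3 were lower at an unadjusted p under 0.05 after 4 days, Irf9 at -0.33 ± 0.12 (adjusted p = 0.257), Stat2 at -0.28 ± 0.11 (0.285) and Irf3, which is activated upon nucleic acid sensing, at -0.13 ± 0.06 (0.39). The kinase Jak1 lay at -0.07 ± 0.05 and the receptor chain Ifnar1 at 0.10 ± 0.12. Of the genes of nucleic acid sensing 8 of 15 were measured and 0 called. Dhx58, a cytoplasmic RNA sensor, had -0.34 ± 0.12 (adjusted p = 0.233) and Tbk1, a kinase downstream of the sensors, 0.14 ± 0.07 (adjusted p = 0.427). Of the interferons themselves 3 of 9 were measured, with mean intensities of 0.0281 for Ifnb1, 0.0697 for Ifng and 0.0246 for Ifnk, all below the median of all values of 0.122, and 0 were called.

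Among 48 other interferon-stimulated effectors 38 were measured, of which 33 lay below 0 after 4 days, with a median of -0.16, and 12 were lower and 1 higher at an unadjusted p under 0.05. Lgals9, a galectin, fell by 0.61 ± 0.15 on the log2 scale after 4 days and was called (adjusted p = 0.0837, limma), with -0.42 ± 0.15 after 1 day (adjusted p = 0.389). Oasl had -0.63 ± 0.19 (adjusted p = 0.167) and Ifitm1, which hinders the entry of viruses, -0.29 ± 0.09 (adjusted p = 0.179). In this list 18 genes had r over 0.5 with the members' mean. Among GTPases and class I presentation genes induced by interferon-gamma 16 of 22 were measured and 0 called, with a median of -0.20 after 4 days. The immunoproteasome subunits Psmb8 and Psmb9 had -0.34 ± 0.11 and -0.43 ± 0.15, and the peptide transporter Tap1 -0.36 ± 0.14 (adjusted p = 0.173, 0.245 and 0.287), while Irgm2 had 0.22 ± 0.09 (adjusted p = 0.336). After 1 day, 0 genes were called in each of these lists.

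In whole liver, fewer cells of a type and less RNA per cell cannot be told apart. Kupffer cell markers had a summed intensity of 23.1 to 32 after 4 days (median 28.2), 27.4 to 44.5 after 1 day (median 34.5) and 26 to 41.8 in control rats (median 32.7), with 8 of 10 markers measured, 0 of them called and 0 of them below the median of all values. In the order of this sum rat 8 handled for 4 days had place 19 of 30, rat 1 handled for 1 day place 1, and control rats 8, 6 and 3 places 4, 2 and 13. The low rats 5 and 9 of the 4-day group had places 20 and 30. T and NK cell markers had 0.96 to 1.59 after 4 days (median 1.24), 1.18 to 1.66 after 1 day (median 1.42) and 1.10 to 1.82 in control rats (median 1.42), with 10 of 10 markers measured, 7 of them below the median of all values. Of the 10 markers 1 was called after 4 days, where 0.657% of all probe sets were. It was Nkg7, a granule protein of cytotoxic cells, at -0.42 (adjusted p = 0.0902, limma), and the other markers were not called. Plasmacytoid dendritic cell markers, with 4 of 6 measured and 0 called, had 15.9 to 26.6 after 4 days (median 22.9), 23.2 to 25 after 1 day (median 23.9) and 20 to 30.6 in control rats (median 23). This sum is mostly Bst2, which is itself an interferon-stimulated gene, and the low rats 5 and 9 of the 4-day group had places 30 and 29 of 30 in it, while rat 8 handled for 4 days had place 22, rat 1 handled for 1 day place 7, and control rats 8, 6 and 3 places 23, 3 and 1. Erythroid markers, with 3 of 5 measured and 0 called, had 10.7 to 32 after 4 days (median 20.2), 12.6 to 25.9 after 1 day (median 20.4) and 12 to 24.2 in control rats (median 15.8). The part of these cells in the lower values of the members was not tested.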

How the data were processed

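Per the study's methods, total RNA of the left liver lobe was labelled by the Affymetrix 3′ IVT Express method and hybridized to GeneChip rat genome arrays. The intensities deposited by the authors are linear, and had been summarised per probe set and scaled to a mean of 1 per array. How probes were summarised is not given in the sources used here. The number of arrays limits precision. Of 31099 probe sets, those for 57 Affymetrix control sequences were omitted. Symbols came from the platform table (20826 probe sets with 1 symbol, 436 with several, 9780 with none) and were checked against RefSeq by gene identifier, and 0 changed.

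Log2 intensities without an offset were fitted with limma 3.58.1 (lmFit, eBayes) in R 4.3.3, with the 3 groups in 1 fit, each contrast tested two-sided, p-values adjusted after Benjamini and Hochberg over 31042 probe sets, and calls made at an adjusted p under 0.1. The fit was tested on simulated data. Correlations and promoter searches used Python 3.11.15 with numpy 2.4.6, and permutations were drawn within groups. The named genes were all members, the listed pathway genes called in a contrast or among the 3 of their list with the smallest p after 4 days, and the 10 unlisted genes whose profile was closest to the members' mean. Jak1, Ifnar1, Irgm2, Fasn, Nkg7 and the listed genes closest to the members' mean were named after their values were seen. Members and lists were chosen with earlier results of these data known, and control rats 1, 2 and 3 were left out as an alternative for the same reason. Other alternatives were offsets, quantile normalization, the Gapdh ratio as a covariate, 2 groups only, array weights, an intensity trend, a filter on dim probe sets, a rank-sum test, other thresholds, the replicate number as a block and leaving out each rat.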

Additional observations from a re-analysis of the deposited data

Results flagged for a closer look

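In 2 of 30 combinations of probe set and group, 1 rat stood apart from the other 9 by Dixon's ratio of the gap to the nearest rat over the range of the group, whose critical value for 10 rats is 0.466. Chance gives about 1 in 20. Both were low values of Usp18. Rat 5 handled for 4 days had an intensity of 0.0741 and a ratio of 0.513, and rat 3 handled for 1 day had 0.197 and a ratio of 0.477. Both rats were also among the 5 lowest of 30 in most other members, rat 5 handled for 4 days in 8 of 9 genes and rat 3 handled for 1 day in 6 of 9.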

How the results depend on the processing

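The count of member probe sets called after 4 days against control, 1 in the fit reported, depended on the processing. It was 4 (Oas1a, Mx2, Ifi27 and Usp18) when 0.05 was added, with an intensity trend and after the dimmest 40% of probe sets had been dropped, and 2 when 1 was added (Oas1a and Ifi27) and at an unadjusted p under 0.001 (Oas1a and Mx2). It fell to 0 once the Gapdh ratio entered the fit, in a fit of the 2 groups alone, with the exact rank-sum test and at an adjusted p under 0.05. Over all probe sets 204 passed in the fit reported. With the offset of 0.05 the total was 346, with the offset of 1 it was 467 and with the trend 370. It was 490 without the dim probe sets, 5 with the Gapdh ratio, 27 with 2 groups and 155 with the rank-sum test. Quantile normalization, array weights and omission of control rats 1, 2 and 3 left the count at 1. Leaving out each rat gave 0 to 2, with 0 without control rat 3 or rat 5 or 6 handled for 4 days. The cause was not tested. The counts after 1 day and for 4 days against 1 day were 0 in every alternative. The median r over pairs was 0.688 without the 2 rats farthest from the median of each pair's first gene. In the other alternatives it stayed between 0.703 and 0.803.

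With the replicate number as a block the count after 4 days was 0 (Oas1a -1.24, adjusted p = 0.114) and 85 probe sets passed in all. The labels give no pairing. Same-numbered rats had r of -0.038 to 0.118 over the 3 pairs of groups, with r over 0.1 in 1 of 10, 0 of 10 and 0 of 10 pairs. This r is another measure than the r between arrays over all probe sets, which was 0.946 to 0.976. The fit reported did not pair the rats by number. The rat of the same number was nevertheless the closest in 5, 2 and 6 of 10, where about 1 of 10 would be by chance. That is a sign in the data of something shared by number, and its source was not tested. The permutations within groups did not take the numbers into account.

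Some small differences changed sign. After 1 day Mx1 was 0.06 in the fit reported, -0.059 with the Gapdh ratio, -0.026 without control rats 1, 2 and 3, and -0.04 to 0.14 with each rat left out. Ifit3 was 0.02, then -0.006 with the Gapdh ratio and -0.04 to 0.11 with each rat left out, Rsad2 was 0.23, then -0.16 with the Gapdh ratio, and the second Mx2 probe set was -0.08, with -0.146 to 0.009 when each rat was left out. After 4 days Rsad2 was -0.03, then 0.009 with the offset of 1 and -0.15 to 0.10 with each rat left out. Over single genes 1184 values kept direction and side of the threshold, 21 changed sign, 15 came to pass and 7 no longer passed. Whether the second Mx2 probe set, at a mean intensity of 0.0797, was above background was not tested.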
